A study of Mus musculus with 4 samples.

Results

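Acute-phase proteins are secreted proteins whose synthesis rises sharply during infection and injury. The 9 genes described here encode serum amyloid A (Saa1, Saa2 and Saa3), haptoglobin (Hp), hemopexin (Hpx), ceruloplasmin (Cp), the orosomucoids (Orm1 and Orm2) and the long pentraxin Ptx3. They were read through every array probe that carries one of these gene names, which gave 12 of the 41174 probes on the array. Of these 12 probes, 10 probes of 7 genes were bright enough to be tested, among 28347 such probes in all. The 2 that were not are the probes for Orm1 and Orm2.

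Agilent one-colour arrays, which each carry RNA labelled with Cy3, measured gene expression in the whole amygdala. The mice were C57BL/6J males at 10 weeks of age. The 4 groups were P2X7R KO mice given LPS, P2X7R KO mice given saline, wild-type (WT) mice given LPS and WT mice given saline. KO mice lack the P2X7 receptor, an ATP-gated cation channel best known for its role in interleukin-1β release. LPS (lipopolysaccharide, a component of the outer membrane of Gram-negative bacteria) was injected into the peritoneal cavity at 7.5 µg per mouse, given elsewhere in the labels as 250 µg/kg, and controls received sterile 0.9% NaCl. All mice were killed 6 h after the injection, and each group has 4 arrays. The labels give 4 mice a group but tie no array to a mouse, so a p-value here reflects variation among arrays.

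The classical acute-phase response takes place in the liver, where hepatocytes receive interleukin-6 and interleukin-1 and raise transcription through STAT3, C/EBPβ, C/EBPδ and NF-κB. Several of these genes are also switched on outside the liver. Saa3 is made by macrophages and other cells of inflamed tissue, Ptx3 by endothelial and myeloid cells that meet Toll-like receptor ligands or interleukin-1, and Cp by astrocytes. Because whole tissue was measured, more cells of a type and more RNA per cell cannot be told apart.

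Levels are given as the log2 of the probe's processed intensity minus the 75th percentile of the same array, so 0 is the intensity of a moderately bright probe. Values compare arrays for one probe and do not rank one gene against another. A probe that the scanner software did not place well above the local background has only an upper bound on that array. The lowest level of any probe well above background was −5.54 to −4.28 on KO LPS arrays, −5.13 to −4.70 on KO saline arrays, −6.33 to −5.57 on WT LPS arrays and −6.31 to −5.71 on WT saline arrays. Levels beneath these have no order. A probe can also lie above them without being well above background, so the "at least" folds below are not strict limits. Where only some arrays of a group placed a probe well above background, or where 2 groups at background enter a difference, the change is a fitted value from the levels as read and its size is not determined.

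All KO arrays were run on other slides and in another scan session than all WT arrays, so genotype cannot be told apart from slide and session. The 75th percentile of intensity was 345.9 to 614 on KO arrays and 580.8 to 1153 on WT arrays, and 58.1% to 71.9% of probes were well above background. One P2rx7 probe was lower in KO arrays (−1.69 to −0.80) than in WT arrays (−0.14 to 0.90), and a second P2rx7 probe did not pass the test. Markers of the amygdala and neighbouring regions (12 of 12 genes) and of neurons (6 of 6) were well above background on all 16 arrays. WT saline replicates 1 and 2, which share slide 1, stood apart from WT saline replicates 3 and 4 on slide 2. On all 10 tested probes, both of replicates 1 and 2 lay at or above the lowest WT LPS array, whereas on 8 of the 10 both of replicates 3 and 4 lay below every WT LPS array. These counts were made for the member probes only. Marker genes outside the members also differed between the pairs, so the split is not confined to these genes. Choroid plexus markers averaged −3.80 on replicates 1 and 2 against −1.56 on replicates 3 and 4. Oligodendrocyte markers averaged 2.52 against 3.66, and neuron markers 3.84 against 4.44. Astrocyte markers were alike, at 2.09 in both pairs. Every result that rests on WT saline is therefore given with and without replicates 1 and 2. These were singled out by their expression values, so p-values without them describe the remaining arrays only. Leaving out arrays that read high on the member probes also raises the fitted LPS changes of most members in WT.

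Where the probes lie matters for which transcript they read. By the array's own annotation, in mouse build mm9, the serum amyloid A probes sit within one cluster on chromosome 7: Saa3 (A_51_P337308) at chr7:53968031-53968090, minus strand, Saa1 (A_52_P318673) at chr7:53996070-53996129, minus strand, Saa1 (A_51_P361650) at chr7:53996167-53996639, minus strand, and Saa2 (A_51_P166886) at chr7:54009535-54009594, plus strand. The Saa1 probe A_51_P361650 is 60 bases long but spans 473 bases of genome, so its ends lie in separate blocks. Saa1 and Saa2 are near-identical copies whose names have been exchanged in older annotation, and the array lists the Saa1 transcript also for the Saa3 probe, so signal may be shared between them. The Hp probe (A_51_P235945) lies at chr8:112099172-112099231, minus strand, the Hpx probe (A_51_P325836) at chr7:112740304-112740363, minus strand, and the Cp probe (A_51_P493234) at chr3:19889075-19889134, plus strand. The Orm1 probe (A_51_P336325) lies at chr4:63006483-63007090 and the Orm2 probe (A_51_P141546) at chr4:63024979-63025038, both on the plus strand. Exon and UTR positions were not looked up for these coordinates. The Saa3 probe and both Saa1 probes are shown because their signal may be shared between paralogs, with all bases in lower case.
Saa3 A_51_P337308: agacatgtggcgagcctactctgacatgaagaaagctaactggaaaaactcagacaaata
Saa1 A_51_P361650: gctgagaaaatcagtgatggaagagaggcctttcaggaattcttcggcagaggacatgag
Saa1 A_52_P318673: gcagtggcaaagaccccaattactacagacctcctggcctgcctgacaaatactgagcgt

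Ptx3 has 3 probes on the array. A_51_P374726 at chr3:66029245-66029304 and A_52_P26161 at chr3:66029200-66029259, both plus strand, read the Ptx3 transcript and share 15 bases, so they are not independent measurements. The third, A_51_P261131, is listed on the opposite strand at chr3:66024210-66024234, a span of 25 bases that is shorter than the 60-base probe. It was designed from an unclassified cDNA, and its accession had no RefSeq match. Its behaviour differed from that of the other 2 probes, which is why it is shown, after the shared bases in capitals.
Shared by A_51_P374726 and A_52_P26161: TGTTTATCTTGGCAA
A_51_P261131: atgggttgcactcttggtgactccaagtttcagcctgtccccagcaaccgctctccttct

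The promoters of the genes that moved together were read from RefSeq (GRCm38.p6), as the 250 bases before and 50 bases after the annotated start. RefSeq entries were present for 7 of the 9 members. Capitals mark matches on either strand to the C/EBP pattern TTNNGNAA and, in Ptx3 next to the start, to the NF-kB consensus. The Saa3 window is chr7:46715627-46715926, minus strand, the Saa1 window chr7:46742931-46743230, minus strand, the Saa2 window chr7:46751583-46751882, plus strand, and the Ptx3 window chr3:66219637-66219936, plus strand.
Saa3: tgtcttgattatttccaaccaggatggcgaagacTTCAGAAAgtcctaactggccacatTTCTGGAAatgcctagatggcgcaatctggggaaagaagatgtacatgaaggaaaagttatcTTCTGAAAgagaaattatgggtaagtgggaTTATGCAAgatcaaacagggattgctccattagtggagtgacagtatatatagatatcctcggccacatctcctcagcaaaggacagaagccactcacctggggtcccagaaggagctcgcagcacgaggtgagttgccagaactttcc
Saa1: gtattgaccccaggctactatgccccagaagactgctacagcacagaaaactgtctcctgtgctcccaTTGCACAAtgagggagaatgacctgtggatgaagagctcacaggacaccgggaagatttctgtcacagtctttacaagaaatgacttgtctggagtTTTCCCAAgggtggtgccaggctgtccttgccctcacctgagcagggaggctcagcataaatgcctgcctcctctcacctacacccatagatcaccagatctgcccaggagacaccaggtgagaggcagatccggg
Saa2: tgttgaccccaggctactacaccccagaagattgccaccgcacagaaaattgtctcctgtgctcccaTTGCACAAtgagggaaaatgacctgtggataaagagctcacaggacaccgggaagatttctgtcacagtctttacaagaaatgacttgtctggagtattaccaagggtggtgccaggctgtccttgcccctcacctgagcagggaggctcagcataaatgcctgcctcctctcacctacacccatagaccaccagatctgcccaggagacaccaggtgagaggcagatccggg
Ptx3: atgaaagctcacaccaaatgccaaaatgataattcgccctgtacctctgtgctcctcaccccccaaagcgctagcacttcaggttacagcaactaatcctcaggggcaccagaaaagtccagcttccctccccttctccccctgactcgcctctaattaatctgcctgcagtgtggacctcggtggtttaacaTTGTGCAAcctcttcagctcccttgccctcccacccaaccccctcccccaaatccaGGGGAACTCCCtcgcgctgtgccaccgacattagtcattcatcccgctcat

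The Saa3 window held 4 C/EBP matches, at 216, 191, 129 and 99 bases before the start. Saa1 held 2, at 182 and 86 bases before it, Saa2 held 1, at 183 bases, and Ptx3 held 1, at 57 bases. Hpx, which did not pass the test after LPS, held 2. Orm2, not well above background on any array, held 3, of which 2 are the same bases read on both strands. Cp, whose 2 windows are not printed, held 1 in each, so all 7 members with a window held the pattern. The pattern is short, and 40.7% of all 32851 RefSeq promoter windows hold it. Of the 7 members with a window, Ptx3 alone had an NF-kB match, as 3 overlapping matches over both strands, against 8.46% of all windows. The STAT pattern TTCNNNGAA, which 8.3% of windows hold, matched none of the members' windows. These matches are descriptions of letters and say nothing about which factor was bound. The Saa1 and Saa2 windows were identical at 287 of 301 aligned positions (95.3%), against 54.1% for Saa1 and Saa3.

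After LPS, KO amygdala carried far more acute-phase transcript. Of the 10 tested probes, 8 probes of 6 genes (Saa1, Saa2, Saa3, Hp, Cp and Ptx3) rose relative to KO saline, none fell, and the probes for Hpx and for the strand opposite Ptx3 did not pass the test (limma, Benjamini-Hochberg adjusted p under 0.05 over all 28347 probes). Over all tested probes, 2.11% rose and 3.04% changed in either direction. The same 8 probes had KO LPS arrays that were all above the KO saline arrays, a separation seen upwards in 4.61% of all probes. The median change of the 10 probes was 4.27 on the log2 scale, against −0.08 over all probes, and it was 4.27 also with the 4 probes that have only a bound set at that bound. Of the 10, 4 probes could only pass the brightness filter through groups in which they were high, since no KO saline array placed them well above background. Among the 5 probes well above background on all 16 arrays, which that choice does not touch, 4 rose, against 1.85% of the 20703 such probes. The 8 probes were called again within slide 3 alone, against 2.27% of all probes rising there. Within slide 4 alone 7 were called, against 0.54%, and Cp changed by 3.13 with an adjusted p of 0.0576. With normexp background correction 3 were called (Saa3, Saa1 by A_52_P318673, and Cp), against 0.628% of all probes. The changes were smaller there, 4.66 for Saa3, 2.49 and 2.23 for Ptx3 (A_52_P26161 and A_51_P374726), 1.39 for Saa1 A_51_P361650, 2.40 for Saa2 and 2.55 for Hp on the log2 scale, so the "at least" folds given here hold for processed intensities only.

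In WT amygdala the comparison with all 4 saline arrays called none of the 28347 probes by limma, members included (0%). An unadjusted p under 0.05 was reached by 1786 probes. The member probes had adjusted p-values of 0.737 to 0.976, and for none did the LPS and saline arrays separate, against 4.62% of all probes in either direction. Without WT saline replicates 1 and 2, 6 probes of 5 genes (Saa1, Saa2, Saa3, Hp and Cp) rose, against 1.52% of all probes. Those 2 arrays were left out because of their expression values and read high on these probes. This count is therefore no independent support for a rise in WT. The comparison within slide 1, which holds WT saline replicates 1 and 2, gave values below 0 for all 10 probes, with a median of −0.84. Within slide 2, which holds replicates 3 and 4, the median was 3.96 and Saa3 and Hp were called, against 0.639% of all probes rising.

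**Figure D1:**
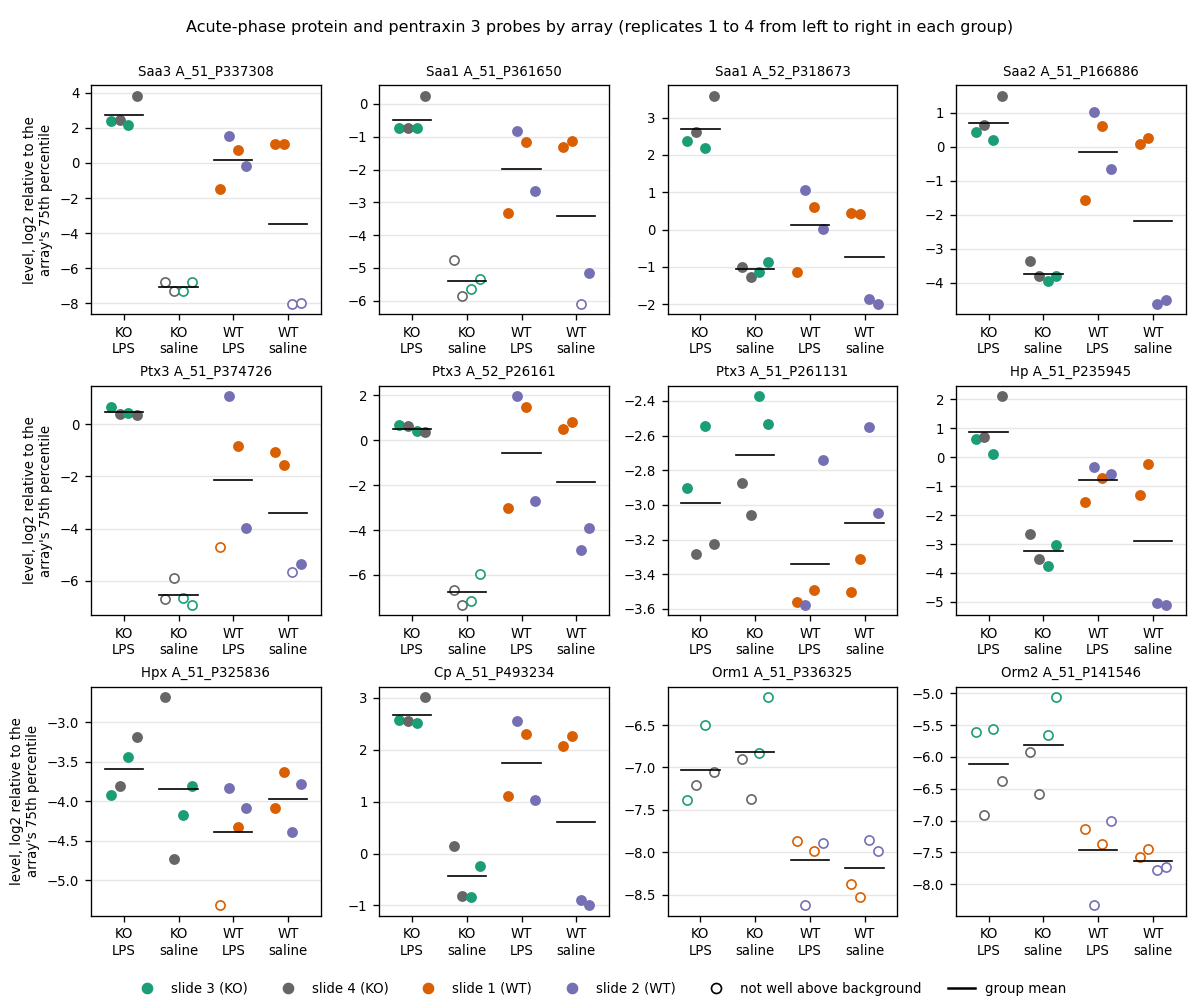
Level of each of the 12 member probes on every array, as log2 intensity relative to the array's 75th percentile (vertical axis), by group (horizontal axis). Colours mark the slide, lines the group mean, and open symbols arrays on which the probe was not well above background. KO LPS arrays stand above KO saline arrays for 8 of the 10 tested probes. On the same 8 probes, WT saline arrays fall into a high pair (replicates 1 and 2) and a low pair (replicates 3 and 4).

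Saa3 encodes a serum amyloid A that is produced mainly outside the liver, by macrophages, adipocytes and epithelial cells. Its level was 2.40, 2.47, 2.16 and 3.83 on the KO LPS arrays (replicates 1 to 4), against −6.81, −7.31, −7.28 and −6.78 on the KO saline arrays. On WT LPS arrays it was −1.46, 1.56, 0.73 and −0.17, against 1.07, 1.09, −8.03 and −7.95 on WT saline arrays. KO LPS arrays were all high, no KO saline array placed the probe well above background, and the WT saline arrays split into a bright pair inside the WT LPS range and a pair not above background. The rise in KO was at least 199-fold (adjusted p = 0.00496). In WT the fitted change was 3.62 ± 1.69 on the log2 scale (SE, adjusted p = 0.79), without a bound because 2 of 4 WT saline arrays read the probe well above background. Without WT saline replicates 1 and 2 the rise was at least 61.4-fold (adjusted p = 9.58e-06).

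Saa1 and Saa2 encode the acute-phase apolipoproteins that displace apolipoprotein A-I from high-density lipoprotein, and in the liver they are among the most strongly induced genes of the acute phase. Probe A_52_P318673 of Saa1, well above background on all arrays, read 2.36, 2.61, 2.19 and 3.59 on KO LPS arrays and −1.01, −1.26, −1.14 and −0.85 on KO saline arrays. It read −1.14, 1.06, 0.60 and 0.02 on WT LPS arrays and 0.45, 0.43, −1.87 and −1.99 on WT saline arrays. The KO groups were more than 3 units apart with tight replicates, while WT LPS replicate 1 lay below WT saline replicates 1 and 2. The change was 3.75 ± 0.57 in KO, a 13.5-fold rise (adjusted p = 0.00291), and 0.88 ± 0.57 in WT (adjusted p = 0.881), or 2.06 ± 0.49 without WT saline replicates 1 and 2 (adjusted p = 0.0426).

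The other Saa1 probe, A_51_P361650, read −0.73, −0.73, −0.75 and 0.25 on KO LPS arrays and −4.74, −5.85, −5.63 and −5.35 on KO saline arrays, the last 4 not well above background. On WT LPS arrays it read −3.33, −0.82, −1.16 and −2.67, against −1.32, −1.13, −6.10 and −5.16 on WT saline arrays. Again the KO groups were apart and the WT groups overlapped. It rose at least 21.6-fold in KO (adjusted p = 0.00715), whereas the WT change was 1.43 ± 0.91 (adjusted p = 0.881), or 3.64 ± 0.60 without WT saline replicates 1 and 2 (adjusted p = 0.00412). The probes of Saa1 thus moved the same way and differed in size, with a floor under the dimmer one.

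Saa2 was 0.44, 0.63, 0.19 and 1.50 on KO LPS arrays, against −3.36, −3.81, −3.95 and −3.81 on KO saline arrays. It was −1.57, 1.04, 0.60 and −0.64 on WT LPS arrays, against 0.08, 0.25, −4.62 and −4.50 on WT saline arrays. All 16 arrays read this probe above background, and the KO groups were separated by several units. Saa2 rose 21.4-fold in KO (4.42 ± 0.95 on the log2 scale, adjusted p = 0.0164). In WT it changed by 2.05 ± 0.95 (adjusted p = 0.786), and by 4.42 ± 0.57 without WT saline replicates 1 and 2 (adjusted p = 0.000567).

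Ptx3 encodes a long pentraxin, a soluble pattern-recognition protein that binds microbes and the complement component C1q. Probe A_52_P26161 read 0.68, 0.62, 0.42 and 0.36 on KO LPS arrays and −6.65, −7.32, −7.14 and −5.95 on KO saline arrays, where it was never well above background. It read −3.01, 1.96, 1.48 and −2.71 on WT LPS arrays and 0.51, 0.80, −4.90 and −3.90 on WT saline arrays. The KO LPS arrays were nearly equal, whereas the WT LPS arrays split into replicates 2 and 3, above all KO LPS arrays, and replicates 1 and 4, far below them. The rise in KO was at least 43.5-fold (adjusted p = 0.00455), and the WT change was 1.30 ± 1.25 (adjusted p = 0.96), or 3.83 ± 1.13 without WT saline replicates 1 and 2 (adjusted p = 0.113).

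Probe A_51_P374726 of Ptx3 read 0.64, 0.40, 0.42 and 0.33 on KO LPS arrays, against −6.69, −5.89, −6.67 and −6.92 on KO saline arrays. On WT LPS arrays it read −4.71, 1.06, −0.85 and −3.99, against −1.06, −1.58, −5.66 and −5.36 on WT saline arrays. The overlapping probe therefore ordered the WT LPS arrays the same way at both ends, with replicate 2 highest and replicate 1 lowest. It rose at least 41.3-fold in KO (adjusted p = 0.00378) and changed by 1.29 ± 1.14 in WT (adjusted p = 0.957), or by 3.39 ± 1.13 without WT saline replicates 1 and 2 (adjusted p = 0.162). The opposite-strand probe A_51_P261131 stayed within −3.58 and −2.37 on all 16 arrays. Its change was −0.28 ± 0.26 in KO (adjusted p = 0.655) and −0.24 in WT (adjusted p = 0.976), or −0.55 without WT saline replicates 1 and 2 (adjusted p = 0.453).

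Hp encodes haptoglobin, which captures free haemoglobin for uptake through CD163. Its level was 0.65, 0.70, 0.10 and 2.10 on KO LPS arrays, against −2.66, −3.50, −3.75 and −3.04 on KO saline arrays. It was −1.54, −0.33, −0.72 and −0.57 on WT LPS arrays, against −1.29, −0.22, −5.02 and −5.10 on WT saline arrays. KO LPS arrays were above all other arrays, and WT saline replicate 2 was above every WT LPS array. Hp rose 17.4-fold in KO (4.13 ± 0.86 on the log2 scale, adjusted p = 0.0139). The WT change was 2.12 ± 0.86 (adjusted p = 0.737), or 4.27 ± 0.48 without WT saline replicates 1 and 2 (adjusted p = 0.000173).

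Hpx encodes hemopexin, which binds free haem and delivers it to LRP1, and its groups did not separate. Its level was −3.93, −3.81, −3.44 and −3.19 on KO LPS arrays, against −2.68, −4.73, −4.17 and −3.81 on KO saline arrays. It was −5.31, −3.83, −4.33 and −4.09 on WT LPS arrays, against −4.08, −3.63, −4.39 and −3.79 on WT saline arrays. The groups overlapped in both genotypes, and the highest array was KO saline replicate 1. The change was 0.26 ± 0.38 in KO (adjusted p = 0.791) and −0.42 in WT (adjusted p = 0.958), or −0.30 without WT saline replicates 1 and 2 (adjusted p = 0.864).

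Cp encodes ceruloplasmin, a copper-carrying ferroxidase that astrocytes also hold at their surface, and it was well above background on all 16 arrays. It read 2.57, 2.56, 2.52 and 3.02 on KO LPS arrays, against 0.14, −0.82, −0.84 and −0.24 on KO saline arrays. It read 1.10, 2.55, 2.30 and 1.04 on WT LPS arrays, against 2.06, 2.26, −0.90 and −0.996 on WT saline arrays. WT LPS arrays lay in a higher and a lower pair, and WT saline replicates 1 and 2 fell between these pairs. Cp rose 8.60-fold in KO (3.10 ± 0.64 on the log2 scale, adjusted p = 0.0129). In WT it changed by 1.14 ± 0.64 (adjusted p = 0.833), and by 2.70 ± 0.41 without WT saline replicates 1 and 2 (adjusted p = 0.0024). Orm1 and Orm2, which encode the lipocalin α1-acid glycoproteins, were not well above background on any array, so no change can be given for them.

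**Figure D2:**
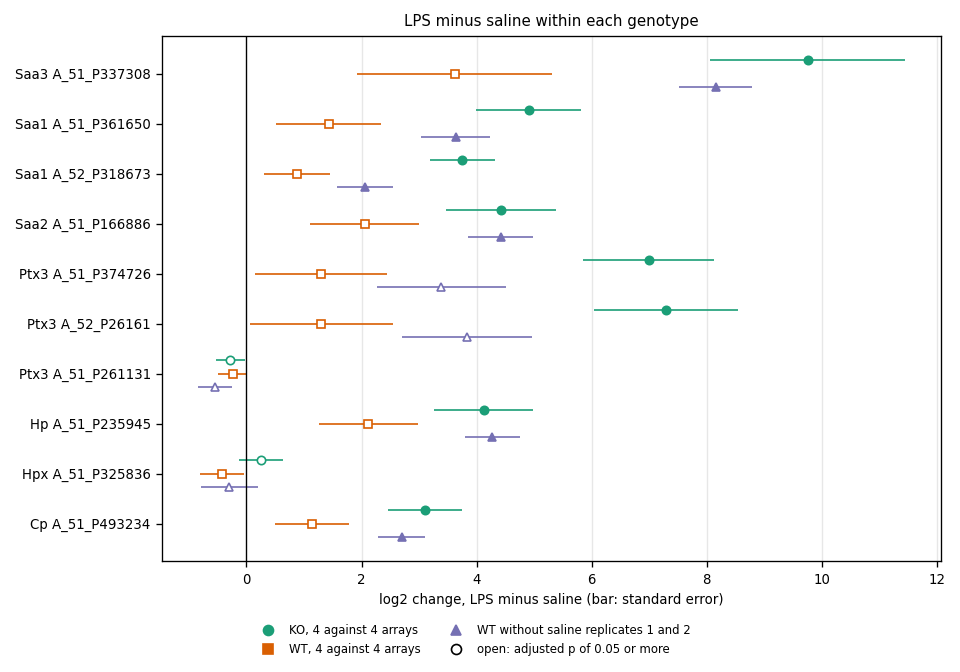
Change with LPS (log2, LPS minus saline, with SE) for the 10 tested probes in KO, in WT with all arrays and in WT without saline replicates 1 and 2. The 8 probes called in KO lie between 3.10 and 9.76. In WT all 8 are positive with all arrays and larger once the 2 saline arrays are left out. Those of Saa1, Saa2, Saa3, Hp and Cp are then called in WT, and the 2 Ptx3 transcript probes are not. For Saa3, Saa1 A_51_P361650 and the 2 Ptx3 transcript probes the KO saline level was not well above background, so the plotted KO value is a fitted one and no bound.

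**Figure D3:**
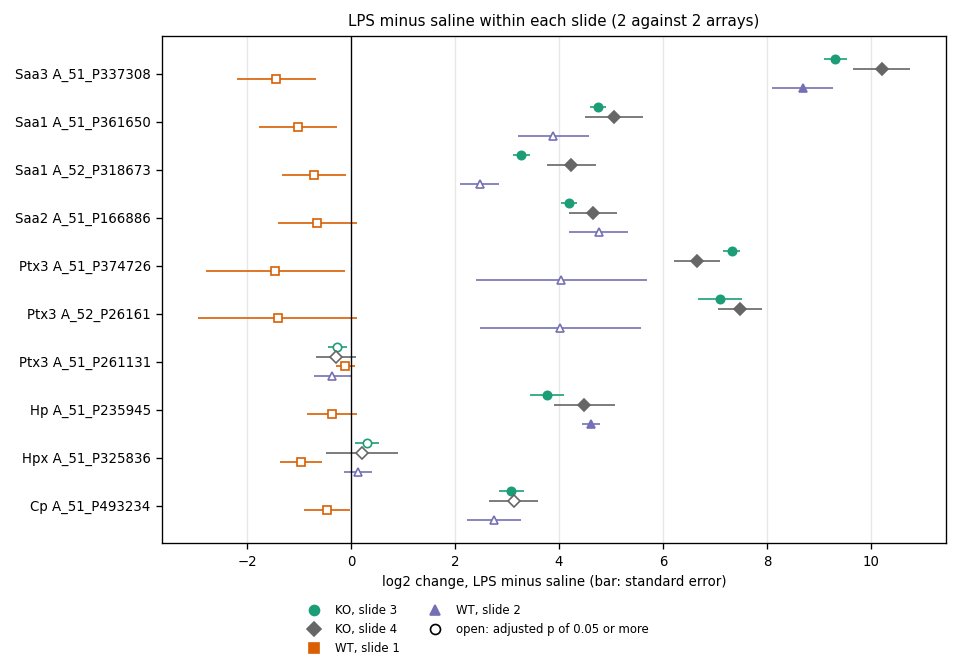
Change with LPS (log2, LPS minus saline) within each slide, which holds 2 LPS and 2 saline arrays of one genotype. Both KO slides give large positive values for 8 probes, whereas WT slide 1 gives values below 0 and WT slide 2 a median of 3.96.

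The difference of the LPS responses between genotypes was tested directly and no member passed, while 1 of 28347 probes did (0.00353%). The fitted KO minus WT response was 6.14 ± 2.40 on the log2 scale for Saa3 (adjusted p = 0.67), with like values for the Ptx3 probes A_52_P26161 (5.98 ± 1.77, adjusted p = 0.439) and A_51_P374726 (5.70 ± 1.62, adjusted p = 0.401). Without WT saline replicates 1 and 2 these values were 1.60, 3.46 and 3.60, and again no member passed. All of them rest on KO saline levels not well above background, so their sizes and order are not determined. For Saa1 A_52_P318673, bright on all arrays, the difference was 2.88 ± 0.80 (adjusted p = 0.374), or 1.69 without those 2 arrays (adjusted p = 0.713). Saa2 gave 2.37 with all arrays and 0.00 without those 2. The median of the fitted differences over the 10 probes was 2.62 with all arrays and 0.91 without them.

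Among mice given LPS, KO arrays were higher than WT arrays for Saa1 by probe A_52_P318673 (2.55 ± 0.57 on the log2 scale, adjusted p = 0.00183). This was the only one of the 10 probes called higher, against 23.9% of all probes higher and 48.4% called in either direction. The KO LPS and WT LPS arrays did not overlap for 4 probes, those of Saa3 and Hp and both of Saa1, all higher in KO, against 25.7% of all probes. The 1 call is below both shares of called probes. Saa3 differed by 2.55 ± 1.69 (adjusted p = 0.227), Hp by 1.68 (adjusted p = 0.12), Cp by 0.92 (adjusted p = 0.251) and Saa2 by 0.83 (adjusted p = 0.489). Ptx3 differed by 2.57 (A_51_P374726, adjusted p = 0.0743) and 1.09 (A_52_P26161, adjusted p = 0.491). The fit pools its spread over all groups, so without WT saline replicates 1 and 2 the same differences were called for 6 probes, those of Saa3 (adjusted p = 0.00132), Hp, Cp, Ptx3 A_51_P374726 and both of Saa1, against 25.2% of all probes higher. With the 2 LPS groups alone they were called for 5 probes, those of Saa3 (adjusted p = 0.00666), Hp, Cp and both of Saa1, against 27.1%. Leaving out WT LPS replicate 2 added Ptx3 probe A_51_P374726 to the calls (3.63, adjusted p = 0.0114), and leaving out KO saline replicate 1 added Hpx (0.80, adjusted p = 0.0373), so either gave 2 called probes. Cell type markers were also called between KO LPS and WT LPS arrays, to be read against the 48.4% of all probes called. Of 7 oligodendrocyte markers 6 were lower and 1 higher in KO, and of 6 neuron markers 4 were higher. Lower were 3 of 7 choroid plexus, 4 of 9 endothelial and 3 of 12 amygdala and neighbouring region markers. Higher and lower were 3 and 2 of 8 astrocyte, 3 and 1 of 8 microglia, and 2 and 1 of 6 perivascular macrophage markers. For hepatocytes they were 2 and 1 of 3, and for pericytes and fibroblasts 1 and 2 of 8. Of 4 blood markers 1 was higher. With all arrays in the fit, none of the 3 tested neutrophil markers passed, with a mean level of −1.42 to 0.17 on KO LPS arrays and −3.09 to −1.78 on WT LPS arrays. Without WT saline replicates 1 and 2 in the fit, 2 of the 3 were called higher in KO, against 25.2% of all probes. The part of these cells in the differences was not tested.

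Among mice given saline, both Ptx3 transcript probes were lower in KO, by at least 8.26-fold for A_52_P26161 (adjusted p = 0.00443) and by a fitted −3.13 on the log2 scale for A_51_P374726 (adjusted p = 0.0316). The second has no bound, because 3 of 4 WT saline arrays placed it well above background. These 2 of 10 probes compare with 25.7% of all probes called lower and 52.1% called in either direction. The count is near the first share and below the second. Several of the levels compared lie under the detection floors. With normexp background correction neither call held (−0.87 for A_52_P26161, adjusted p = 0.464, and 0.65 for A_51_P374726, adjusted p = 0.423). Neither remained called without WT saline replicates 1 and 2. There only Hp passed, higher in KO by 1.82 ± 0.48 on the log2 scale (adjusted p = 0.00997), against 18.5% of all probes higher. The median of the fitted differences over the 10 probes was −1.29 with all arrays and 0.38 without the 2. A single array also mattered: the count of called probes was 1 when KO saline replicate 1, 3 or 4 or WT saline replicate 1 or 2 was left out, and 5 when WT saline replicate 3 or 4 was.

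**Figure D4:**
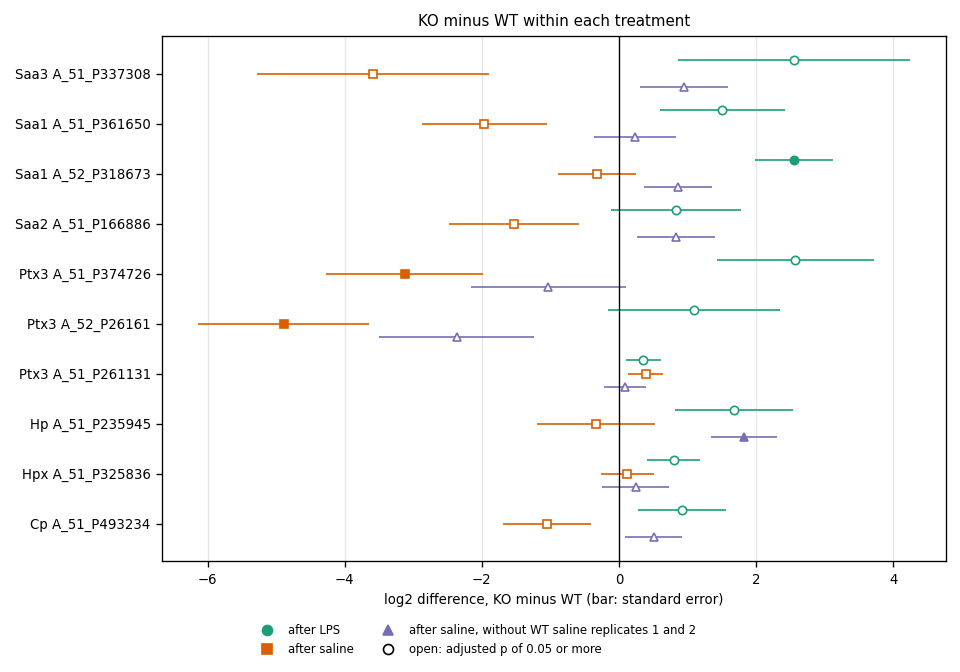
KO minus WT difference (log2, with SE) of the 10 tested probes after LPS, after saline with all arrays, and after saline without WT saline replicates 1 and 2. Filled symbols were called. After LPS the differences lie above 0, and after saline those of Saa1 A_52_P318673, Saa2, Hp and Cp change sign once the 2 WT saline arrays are left out. For Saa3 and Saa1 A_51_P361650 the KO saline level lies at background, so the plotted sign gives no direction.

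Arrays were ordered alike by most members. Over the 16 arrays, the 28 pairs among the 8 probes that rose in KO had Pearson's r of 0.77 to 0.99. Most of these arrays fall into a high and a low set, and the r across them largely describes that split. The sets are not the same on every probe. For Saa1 A_52_P318673, WT LPS replicate 1 (−1.14) lay below KO saline replicates 1 (−1.01) and 4 (−0.85). For Ptx3 A_51_P374726 the same WT LPS array (−4.71) was not well above background. Correlations with Hpx were 0.14 to 0.39, and those with the opposite-strand Ptx3 probe were −0.60 to −0.26. The probes outside the members whose pattern over the 16 arrays was most like the members' average were those of Angptl4, an inhibitor of lipoprotein lipase (r = 0.987), Igsf6 (0.987), Timp1, an inhibitor of matrix metalloproteases (0.982), Rhoj (0.980), and Socs3, the feedback inhibitor of interleukin-6 signalling (0.980). For Angptl4, r was 0.991 within the 8 KO arrays and 0.980 within the 8 WT arrays.

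Other genes of the acute-phase pathway moved in part with the members. Over all probes, 2.11% rose in KO after LPS. Of 13 other positive acute-phase genes bright enough to test, 5 rose in KO after LPS and none fell, with a median change of 2.26. The 5 include Cd14, the LPS co-receptor (3.72 ± 0.62, adjusted p = 0.00404), Serpina3n, a protease inhibitor of reactive astrocytes (3.32, adjusted p = 0.00731), and Lbp, the LPS-binding protein (1.98, adjusted p = 0.00863). None of 9 negative acute-phase genes, which fall in liver during the acute phase, passed the test, and their median was −0.41. Of 21 upstream cytokines and signal transducers 10 rose and none fell (median 1.64), among them the oncostatin M receptor Osmr (3.77, adjusted p = 0.00312) and the transcription factors Cebpd (3.60, adjusted p = 0.00274) and Cebpb (2.20, adjusted p = 0.00254).

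Among receptors and partners of these proteins, 3 of 24 tested genes rose in KO and 1 fell, with a median change of 0.03. Over all 28347 probes, 2.11% rose and 264 probes fell. Tlr2, a receptor that serum amyloid A engages, rose by 4.36 (adjusted p = 0.00274), Hmox1, which degrades haem, by 1.91 (adjusted p = 0.00254), and Slc40a1, the iron exporter ferroportin, fell by 2.96 (adjusted p = 0.00346). In WT none of the genes of these 4 lists passed with all arrays. Without WT saline replicates 1 and 2, 8 of 13 other positive acute-phase genes and 4 of 21 upstream genes rose. Of 24 receptors and partners 4 rose and 2 fell, and none of the 9 negative acute-phase genes passed. Over all 28347 probes, 1.52% rose and 220 probes fell in that fit.

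Markers of cells that could carry acute-phase transcripts into the tissue were read beside these changes. Of 8 hepatocyte markers on the array, Alb, Apob, Ahsg and Cyp2e1 were not well above background on any array. Fgb, too dim to test, was well above background on 1 KO LPS, 2 WT LPS and 2 WT saline arrays and on no KO saline array. None of the 3 tested hepatocyte markers (Apoa2, Tat and Ttr) rose. Tat was well above background on all 16 arrays, Ttr on 9 and Apoa2 on 6. Their mean level was −4.64 to −3.91 on KO LPS arrays and −4.42 to −2.61 on KO saline arrays. With all arrays, none of the 3 tested neutrophil markers passed in KO or in WT. Without WT saline replicates 1 and 2 in the fit, 2 of the 3 rose in KO, against 750 of 28347 probes. In WT 2 of the 3 rose in that fit, against 1.52% of all probes. The mean level of the 3 markers was −1.42 to 0.17 on KO LPS arrays and −2.74 to −2.10 on KO saline arrays. On WT LPS arrays it was −3.09 to −1.78, against −1.75 and −1.70 on the first WT saline pair (slide 1) and −4.44 and −4.40 on the second (slide 2). S100a8 changed by 2.68 (adjusted p = 0.159) and S100a9 by 2.21 (adjusted p = 0.202) in KO, and Mpo by 0.01 (adjusted p = 0.984). The other listed neutrophil markers were too dim to test. No array placed Elane well above background. Camp, Ngp and Ltf were well above it on 2 KO LPS arrays each, Cxcr2 and Retnlg on 1 each, and none of them on a KO saline array. In WT, Cxcr2 and Ngp were so on 1 LPS array, Retnlg on 1 saline array, Ltf on 1 of each and Camp on none. The part of these cells in the result was not tested.

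Over all probes, 3.04% were called in KO after LPS in either direction. Of the markers of resident cells, 1 rose in KO after LPS. The marker that rose was Gfap, among 8 astrocyte markers (1.13, adjusted p = 0.0428). Of 9 endothelial markers 2 fell, Abcb1a by 2.40 and Tek by 2.43, and 2 of 8 pericyte and fibroblast markers fell. Of 6 perivascular macrophage markers 3 fell, Cd209f by 3.0, Lyve1 by 1.28 and Cbr2 by 1.15. None of the microglia (8 tested), oligodendrocyte (7), choroid plexus (7), blood (4), neuron (6) or amygdala and neighbouring region (12) markers passed.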

How the data were processed

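Whole-amygdala RNA was hybridised to 16 Agilent one-colour arrays, 4 a group. The deposited scanner files hold intensity values background-subtracted by Agilent Feature Extraction 9.5, per the file headers and the submitters' processing notes. The authors' deposited tables give log2 normalised means of each group and fold values (ratios) between groups, filtered on detection and raw expression, per the file headers. Their centring is not given in the sources used here, and 32 further columns, of detection calls by array, were not used. Group came from the labels and replicate and slide numbers from the array files.

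Processed intensities were put on the log2 scale and each array's 75th percentile was subtracted. Spots of one probe were averaged. Probes well above background on at least 3 of 4 arrays of a group were tested with limma 3.58.1 (R 4.3.3) on 4 group means over all 16 arrays, with Benjamini-Hochberg adjustment over 28347 probes and a threshold of 0.05. A fold of "at least" N compares the bright group's mean with, on each dim array, the higher of its detection floor and the probe's own level. The fit was tested on simulated data. Array number and signal over background limit the precision.

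The members and lists were chosen with earlier results of these data known. All member probes are named, the 5 non-member probes most like the members' mean z-score, and up to 3 genes a list, those with the smallest p in KO. Alternatives covered background correction, scaling, filter, probe choice, slide, replicate block, samples in the fit and each array left out. Promoter sequences came from RefSeq tables.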

Additional observations from a re-analysis of the deposited data

Results flagged for a closer look

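In 3 of 40 groups of 4 arrays (10 probes in 4 groups), 1 array lay farther from the rest than the 95% critical value of Dixon's test allows, and chance gives about 2 of 40. The Saa1 probe A_51_P361650 read 0.25 on KO LPS replicate 4 against −0.75 to −0.73 on the other KO LPS arrays. The Cp probe read 3.02 on the same array against 2.52 to 2.57. The opposite-strand Ptx3 probe A_51_P261131 read −2.74 on WT LPS replicate 4 against −3.58 to −3.49 on the other WT LPS arrays. The 8 calls in KO held with KO LPS replicate 4 left out.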

How the results depend on the processing

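The 8 calls for LPS in KO held whichever array was left out (8 to 8), and were 3 with normexp background correction (Saa3, Saa1 A_52_P318673 and Cp, the others at adjusted p 0.0514 to 0.0706) and 4 with probes above background on all 16 arrays, where 5 member probes are left. Normexp also moved the median of all probes for this comparison from −0.08 to −0.32. LPS in WT gave 0 calls with any 1 array left out, 2 within slide 2 and 6 without WT saline replicates 1 and 2. KO minus WT after saline gave 2 calls with normexp, but of Hpx (1.12) and A_51_P261131 (1.08), higher in KO, in place of Ptx3, and added Saa3 with quantile scaling (−4.14, adjusted p 0.0457). It gave 4 with no filter, 0 with the 16-array filter, 1 with the brightest probe a gene, 1 with slide as a random block, 1 without WT saline replicates 1 and 2, and 1 to 5 with 1 array left out. KO minus WT after LPS gave 2 with normexp, 3 with no filter, 6 without WT saline replicates 1 and 2, 5 with only the groups compared, and 1 to 2 with 1 array left out. The difference of responses had 0 calls throughout.

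Some directions reversed. Without WT saline replicates 1 and 2, KO minus WT after saline was 0.51 for Cp, 1.82 for Hp, 0.24 and 0.86 for Saa1, 0.83 for Saa2 and 0.95 for Saa3 (the Saa3 value and the first Saa1 value rest on levels at background and give no direction), and the difference of responses was −0.14 for Hp and 0.27 for Ptx3 A_51_P261131. Within slide 1, LPS in WT was −0.46 for Cp, −0.37 for Hp, −1.46 and −1.41 for Ptx3, −1.02 and −0.71 for Saa1, −0.65 for Saa2 and −1.45 for Saa3, and within slide 2 Hpx was 0.13. With normexp, KO minus WT after saline was 0.0843 for Hp, 0.65 for Ptx3 A_51_P374726 and 0.47 for Saa1 A_51_P361650, and Hpx was −0.67 for LPS in KO and −0.63 for the difference of responses. With 1 array left out, KO minus WT after saline ranged over −1.06 to 0.57 for Hp, −0.74 to 0.0770 for Saa1 A_52_P318673 and −0.26 to 0.42 for Hpx, LPS in KO over −0.0376 to 0.64 for Hpx, and the difference of responses over −0.22 to 0.16 for Ptx3 A_51_P261131. The cause was not tested.

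A fit with the replicate block gave 8, 0, 2, 1 and 0 calls for LPS in KO, LPS in WT, KO minus WT after saline, KO minus WT after LPS and the difference of responses, the same counts as without it. Same-numbered arrays did not deviate together (correlations −0.405 to 0.319). The labels do not say what the numbers stand for, so this check does not settle whether the arrays are paired.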

Other observations

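KO LPS replicate 4 was the highest of its group on 7 of the 10 member probes and the lowest on 2, both reading the Ptx3 transcript. It also had the highest mean neutrophil marker level of its group (0.17). In WT, LPS replicate 2 was the highest of its group on 9 probes and LPS replicate 1 the lowest on 8.

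The authors' deposited table of fold changes lists 8 of the 12 member probes, and the authors' deposited table of group means lists 10. For KO LPS over KO saline the authors' deposited table of fold changes gives Saa3 as 871-fold up and Hp as 17.5-fold up. For WT LPS over WT saline the authors' deposited table of fold changes gives Saa3 as 12.3-fold up and Hp as 4.35-fold up, over group means that include WT saline replicates 1 and 2.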
